A study of Mus musculus with 6 samples.

Results

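Smooth muscle cells contract when myosin filaments pull on filaments of smooth muscle actin, and the 10 genes described here (Acta2, Actg2, Myh11, Cnn1, Tagln, Des, Myl9, Lmod1, Smtn and Mylk) encode the actin, the myosin, the kinase that switches the myosin on, and proteins that bind or anchor the thin filaments. The genes were chosen by name as a list of contractile genes, out of 18193 genes named alone by at least 1 probe set of the array, and every probe set whose symbol was exactly that of a member was read, 16 of 45037 in all. Of these 16 probe sets, 13 passed the filter on dim signals, at least 1 for each of the 10 genes, and the brightest of a gene stands for it below. Gene expression was measured at postnatal day 21 (P21) on whole testes of mice carrying 2 copies of the mutant Fn allele of Dazap1 (Fn) and of wild-type mice (Wt), both of mixed C57BL/6 and 129 strain, with 3 samples of each genotype and 1 Affymetrix expression array for each sample. In the Fn allele a selection cassette remains beside the floxed part of Dazap1, a gene for an RNA-binding protein of the hnRNP family, and the gene then makes an aberrant protein with an insertion between its RNA-binding domains. The mutants are growth-retarded and their spermatogenesis is arrested in the adult. At P21 the authors describe testes of either genotype as holding mostly pachytene spermatocytes, with hardly any haploid cells. They also raised the concern that these spermatocytes might be less advanced in Fn testes, because the mutants grow slowly. The make-up of the tissue may still differ between the genotypes as well as the allele, and it was not measured in these samples. The labels call the samples biological replicates and do not say whether an array held 1 animal or a pool.

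In the testis the main contractile cells are the peritubular myoid cells, flattened cells that wrap each seminiferous tubule, squeeze it to move sperm and fluid, and lay down its basement membrane together with Sertoli cells. Smooth muscle contraction starts when calcium and calmodulin activate myosin light chain kinase (Mylk), which phosphorylates the regulatory light chain (Myl9) of smooth muscle myosin (heavy chain Myh11). That myosin then pulls on actin filaments built from Acta2 and Actg2, to which calponin (Cnn1), transgelin (Tagln), smoothelin (Smtn) and leiomodin (Lmod1) bind, while desmin (Des) filaments hold the dense bodies in place. The smooth muscle of testicular blood vessels uses the same genes, so peritubular and vascular muscle cannot be told apart in these samples. In RNA of whole tissue, fewer cells of a type and less RNA in each cell cannot be told apart either, nor can their opposites.

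Transcription of many of these genes is known to run through serum response factor (SRF), which binds the CArG box, a motif of 2 cytosines, 6 bases that are A or T, and 2 guanines. The promoters of Acta2 and Myl9 are shown because they were the only members with such a motif, exact or nearly so, in the RefSeq windows of 300 bases (250 before and 50 after the annotated start, assembly GRCm38.p6). Windows were read for 7 of the 10 members, all but Actg2, Myh11 and Tagln. The Acta2 window is chr19:34255324-34255623 on the minus strand and the Myl9 window is chr2:156775214-156775513 on the plus strand. Capitals mark matches to the CArG box with at most 1 other base among its 6 core positions.
Acta2: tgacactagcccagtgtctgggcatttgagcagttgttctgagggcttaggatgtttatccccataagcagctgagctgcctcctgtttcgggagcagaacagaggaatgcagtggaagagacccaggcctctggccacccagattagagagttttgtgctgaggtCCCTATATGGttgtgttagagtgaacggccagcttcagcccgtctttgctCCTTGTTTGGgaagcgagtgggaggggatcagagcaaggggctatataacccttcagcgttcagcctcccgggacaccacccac
Myl9: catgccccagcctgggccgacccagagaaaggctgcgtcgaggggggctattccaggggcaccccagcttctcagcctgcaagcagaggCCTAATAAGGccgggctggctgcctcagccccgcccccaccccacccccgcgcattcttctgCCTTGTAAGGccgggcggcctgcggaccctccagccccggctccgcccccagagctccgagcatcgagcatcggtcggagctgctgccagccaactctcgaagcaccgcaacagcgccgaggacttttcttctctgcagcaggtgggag
Counting the first base of a match back from the annotated start of its window, the Acta2 window held CCCTATATGG at 84 bases and CCTTGTTTGG at 34 bases, each with 1 other base in the core. That start can lie inside the gene's span, which ends at 34255585 for Acta2. The Mylk window (34784700-34784999) lies wholly inside its gene, which begins at 34745199. The distances are from the start used, which need not be the main one. The Myl9 window held an exact match, CCTAATAAGG, at 161 bases and CCTTGTAAGG, with 1 other base, at 99 bases. Of all 32851 promoter windows, 1.63% held an exact CArG box and 9.98% held one with at most 1 other base. The E-box CANNTG, searched in the same windows, was in 6 of the 7 member windows (all but that of Mylk) and in 72.3% of all windows. A match describes these letters only, and a window without one says nothing about the factor.

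The values were MAS5 signals on a linear scale, and each change below is a log2 difference, Fn minus Wt, tested with limma and adjusted over the 27022 probe sets at or above a signal of 48.0. The median signal of an array was 90.0 to 105.2 in Fn and 86.3 to 89.9 in Wt testes. Dazap1 itself had signals of 2538, 2735 and 2819.8 on the Fn arrays and of 4323, 4462 and 5046 on the Wt arrays (log2 change -0.77, standard error (SE) 0.088, adjusted p = 6.7e-05 from limma). Its probe set was not placed against the altered part of the gene, which makes this only a partial check of the labels. Most of the 13447 genes tested differed between the genotypes: 44.9% rose and 24.7% fell, with a median log2 change of 0.32. Genes of late spermatocytes and spermatids fell, 13 of 14 tested (median log2 change -2.99), with Pgk2, a glycolytic enzyme of late germ cells, at -5.73 and Ccna1, a meiotic cyclin, at -6.21, and Piwil1, the piRNA-binding protein of pachytene cells and the third marker of that list, at -1.97. A log2 change of a member therefore has to be read against 0.32 as well as against 0.

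Against this background, 8 of the 10 contractile genes rose in Fn testes (44.9% of all genes did so) and none fell. Their median log2 change was 0.81, which is 0.49 above the median of all genes. All members except Actg2 and Tagln had every Fn array above every Wt array, 8 of 10, and 48.9% of all genes had this order. Myh11 and Lmod1 rose more than 2-fold, as did 11.8% of all genes. The share of members that rose is above the share of all genes, and most members' changes were of a size that many genes of these testes shared: among all genes tested, the change of Myh11 stood at percentile 93.1, that of Lmod1 at 90.2, and those of Cnn1, Mylk, Smtn and Myl9 between 75.1 and 82.4, while Acta2 stood at 66.1, Des at 57.3, Tagln at 55.5 and Actg2 at 45.2.

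**Figure D1:**
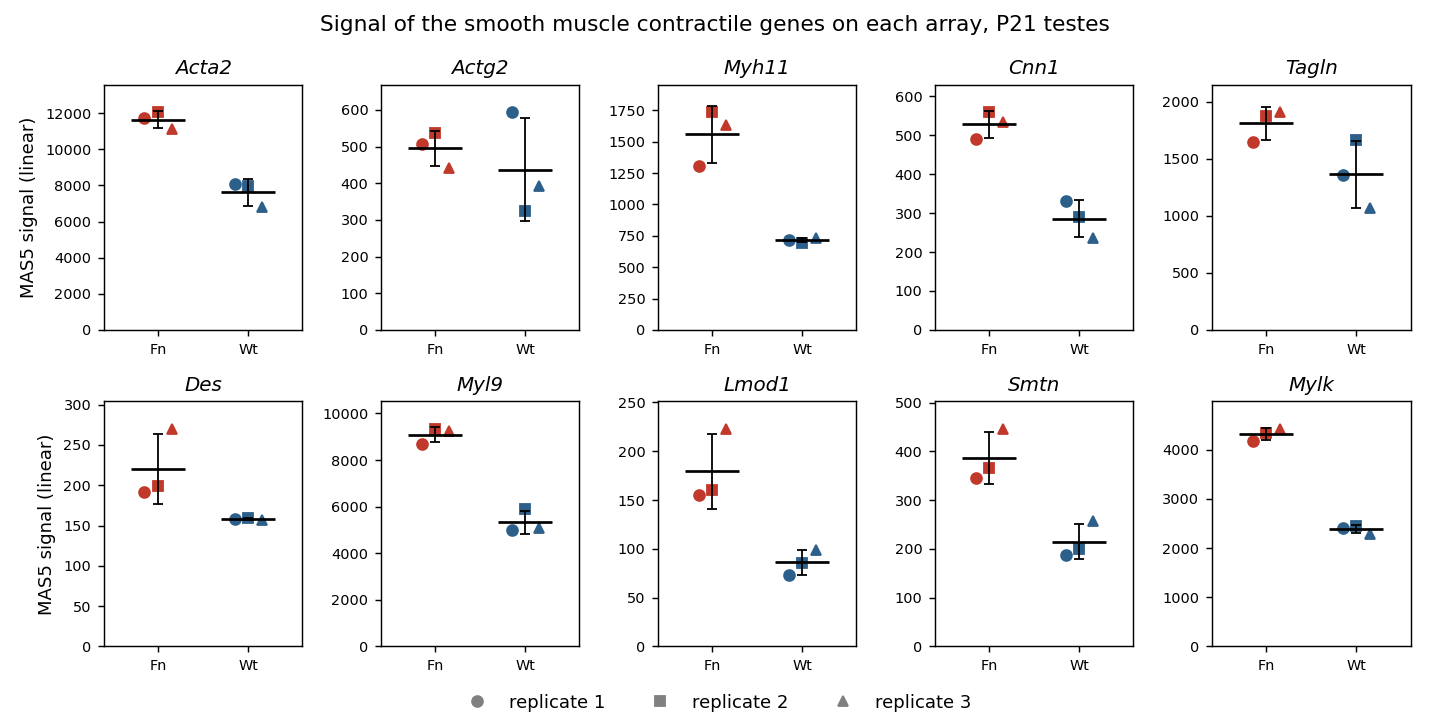
Signal of each contractile gene (vertical axis, linear MAS5 signal from 0, own scale for each gene) on the 3 Fn arrays (left) and the 3 Wt arrays (right), with points for arrays, a bar for the mean and whiskers for the SD. The Fn points lie above all Wt points for 8 genes and overlap them for Actg2 and Tagln.

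The thick filament genes rose together. Myh11, the smooth muscle myosin heavy chain and the most specific marker of mature smooth muscle among the members, had signals of 1303, 1736 and 1636 on the Fn arrays and of 713.5, 696.7 and 728.9 on the Wt arrays. The Wt arrays were nearly level, and even the lowest Fn array, replicate 1, stood far above them. Its mean was 1558 ± 227 in Fn and 713 ± 16.1 in Wt testes (SD, n = 3 each), a log2 change of 1.12 (SE 0.12, adjusted p = 5.9e-05 from limma), the largest of the 10 genes on the deposited scale with all arrays. Myl9, the regulatory light chain that is phosphorylated to start contraction, had 8708, 9344 and 9233 in Fn testes and 5003, 5896 and 5080.2 in Wt testes. Both genotypes were tight and did not overlap, and the log2 change was 0.78 (SE 0.080, adjusted p = 3.8e-05 from limma). Mylk, the kinase that phosphorylates this light chain, had 4179, 4341 and 4425 on the Fn arrays and 2403, 2457 and 2292 on the Wt arrays. It had the smallest SE and the smallest p of the members, with a log2 change of 0.86 (SE 0.076, adjusted p = 1.4e-05 from limma) and a ratio of 1.81.

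Of the 2 smooth muscle actins, Acta2 passed the test and Actg2 did not. Acta2, the alpha-actin used as the common marker of peritubular myoid cells, had 11745, 12057 and 11138 in Fn testes and 8098, 7945 and 6781 in Wt testes. Every Fn array exceeded every Wt array, and Wt replicate 3 was the lowest of the 6. The log2 change was 0.62 (SE 0.080, adjusted p = 1.4e-04 from limma), a ratio of 1.53 and the smallest change among the 7 genes that passed under every scaling tried. Actg2, the gamma-actin typical of visceral smooth muscle, had 506.5, 536.6 and 440.8 in Fn testes and 593.7, 324.3 and 392.9 in Wt testes. Here the groups overlapped, because Wt replicate 1 was the highest array of all. The log2 change was 0.22 (SE 0.21, 95% interval -0.25 to 0.69, adjusted p = 0.38 from limma), and it rested on single Wt arrays: it was 0.47 without Wt replicate 1 (adjusted p = 0.039) and 0.030 without Wt replicate 2 (adjusted p = 0.91). Within each array the log2 ratio of Acta2 to Actg2 was 4.54, 4.49 and 4.66 in Fn testes and 3.77, 4.61 and 4.11 in Wt testes, so the genotypes overlapped and a difference between the 2 actins was not shown.

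Leiomodin, calponin and transgelin act on the thin filament. Lmod1, which nucleates actin filaments in smooth muscle, had 154.7, 160.1 and 223.1 on the Fn arrays and 73.7, 85.8 and 99.3 on the Wt arrays. The dimmest Fn array was above the brightest Wt array, and Fn replicate 3 stood apart above the other Fn arrays. The log2 change was 1.05 (SE 0.23, adjusted p = 0.0030 from limma), with a wide 95% interval of 0.53 to 1.56. Cnn1, calponin, which binds actin and slows the myosin ATPase, had 491.5, 559.3 and 533.5 in Fn testes and 331.2, 289.8 and 235.7 in Wt testes. No array of one genotype reached the other, and the log2 change was 0.90 (SE 0.16, adjusted p = 7.8e-04 from limma). Tagln, transgelin, an actin-bundling relative of calponin and an early marker of the smooth muscle lineage, had 1649.7, 1879 and 1911 in Fn testes and 1359.7, 1663 and 1073.5 in Wt testes. Wt replicate 2 lay just above Fn replicate 1, so the groups overlapped. Its log2 change of 0.43 (SE 0.15, adjusted p = 0.032 from limma) was the weakest call among the members: it was lost without Fn replicate 2 (adjusted p = 0.072), Fn replicate 3 (0.077), Wt replicate 1 (0.067) or Wt replicate 3 (0.095), and the change was 0.27 without Wt replicate 3.

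Smtn and Des complete the list. Smtn, smoothelin, found with the actin filaments of contractile smooth muscle, had 345.0, 366.7 and 446.6 on the Fn arrays and 188.5, 200.2 and 257.0 on the Wt arrays. The groups did not overlap, with replicate 3 the highest array in both genotypes. The log2 change was 0.85 (SE 0.17, adjusted p = 0.0021 from limma). Des, desmin, the intermediate filament protein of muscle and of peritubular myoid cells, had 192.0, 199.1 and 270.1 in Fn testes and 157.9, 159.3 and 156.8 in Wt testes. All Fn arrays were above the nearly identical Wt arrays, but Fn replicate 3 was well above the other Fn arrays, and the spread within Fn testes (SD 43.2, against 1.25 in Wt testes, n = 3 each) left the log2 change of 0.46 (SE 0.18, 95% interval 0.05 to 0.87) just outside the threshold, with an adjusted p of 0.0504 from limma. Without Fn replicate 3 the log2 change was 0.31 (adjusted p = 0.18).

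The probe sets of a gene were set beside each other where it had several. The 3 probe sets of Mylk all rose, by 0.86, 0.95 and 0.84 on the log2 scale (adjusted p from 1.4e-05 to 0.0056 from limma). The second of them, 1425505_at, had signals of 3517, 3765 and 2997 in Fn testes and of 1675, 2146 and 1532 in Wt testes, and the dimmest, 1425504_at, had 283.0, 219.9 and 259.3 against 120.7, 182.0 and 127.4, again without overlap. The Mylk gene makes transcripts of different length, and the probe sets were not assigned to them here. For Acta2 the call rests on the brightest probe set alone, 1416454_s_at. The dim Acta2 probe set 1444105_at gave 75.8, 56.8 and 68.8 on the Fn arrays and 56.4, 67.7 and 34.3 on the Wt arrays. Its groups overlapped, with a difference of 0.39 (SE 0.34, adjusted p = 0.34 from limma). Another Acta2 probe set, 1456658_at, and second probe sets of Myh11 (1418122_at) and Des (1426732_at) were under the filter and were not tested. That Acta2 probe set had 41.1, 40.2 and 37.8 on the Fn arrays and 25.8, 15.9 and 29.7 on the Wt arrays, and that of Des had 35.9, 44.9 and 35.9 in Fn testes and 29.8, 2.5 and 32.4 in Wt testes. The one of Myh11 was near the floor, with 3.0, 6.4 and 6.7 in Fn testes and 6.1, 5.4 and 7.1 in Wt testes, and says nothing of the gene. Over all member probe sets, 10 of 13 tested rose, and 41.8% of all probe sets did.

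**Figure D2:**
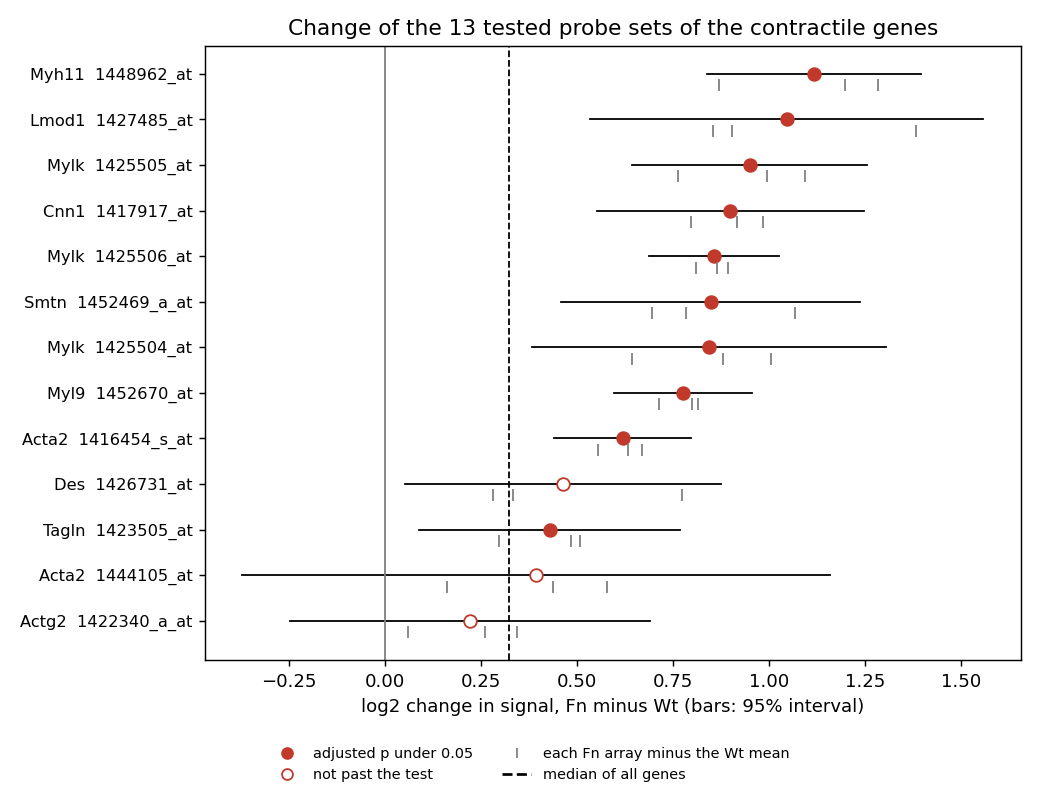
log2 change (horizontal axis, Fn minus Wt) of the 13 tested probe sets of the contractile genes, with the 95% interval as a line, each Fn array minus the Wt mean as a tick, and the median of all genes, 0.32, as a dashed line. Filled points mark the 10 probe sets that passed the test, which include all 3 of Mylk.

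The rise above the other genes was examined by scaling the arrays in other ways, since a change common to most genes enters every member. With each array centred on its median level over the genes tested, 7 of 10 members rose, against 40.1% of all genes. Those array medians differed by only 0.08 on the log2 scale between the genotypes, so this centring still left the median change of all genes at 0.24. With each array shifted by the median of its log2 ratios to the average array, a scaling chosen after seeing the data that left the median change of all genes at 0.04, 7 of 10 members rose, against 28.4% of all genes, while 32.7% fell. The same 7 genes passed in both, namely Acta2, Myh11, Cnn1, Myl9, Lmod1, Smtn and Mylk. Under the median-of-ratios scaling, with limma's adjusted p in parentheses, Myh11 differed by 0.84 on the log2 scale (4.2e-04), Lmod1 of 0.76 (0.019), Cnn1 of 0.62 (0.0064), Mylk of 0.57 (1.4e-04), Smtn of 0.57 (0.023), Myl9 of 0.49 (5.9e-04) and Acta2 of 0.34 (0.0036). Des at 0.18 (0.43), Tagln at 0.15 (0.42) and Actg2 at -0.061 (0.82) did not pass, and Actg2 changed its sign.

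Taken array by array, the members were high on all 3 Fn arrays. Set against the Wt mean, the median log2 value over the 10 members was 0.70 on Fn replicate 1, 0.80 on Fn replicate 2 and 0.85 on Fn replicate 3, where the median of all genes was 0.31, 0.31 and 0.32. The members' medians on the Wt arrays ran from -0.060 to 0.024, below every Fn array. Values near 0 there follow from subtracting the Wt mean. The median of all genes on the Wt arrays was likewise -0.019 to 0.019, also below every Fn array. Of the 10 members, 8 exceeded every Wt array on Fn replicate 1, and 9 did so on each of the other Fn arrays. The share of all genes that did so on a single Fn array was not computed. For the stricter order, with all 3 Fn arrays above every Wt array, it was 48.9%, so on a single Fn array it was at least that. These counts therefore show nothing particular to the members. On Fn replicate 1, 7 members stood above that array's median over all genes, on Fn replicate 2 all 10 and on Fn replicate 3 all but 1.

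Within a genotype the members did not move as 1 block. Fn replicate 1 was below the Fn mean for 8 members, by most for Myh11 (-0.25 on the log2 scale). Fn replicate 3 was above it for 8 members, by most for Lmod1 (0.34), Des (0.31) and Smtn (0.22), whereas Acta2 and Actg2 were below it there. Lmod1 and Smtn were also the highest on Wt replicate 3, at 0.21 and 0.27 above the Wt mean, on the array where Acta2 (-0.16), Cnn1 (-0.26) and Tagln (-0.32) were lowest. Over all 6 arrays the 45 pairs of members correlated between 0.11 and 0.99 (Pearson's r of log2 signals, median 0.84), and the 8 pairs under 0.50 all held Actg2. These correlations carry the difference between the genotypes. With each genotype's mean removed, 29 of the 45 pairs correlated above 0, from 0.94 for Lmod1 with Smtn to -0.92 for Acta2 with Smtn. All these values share the same 6 arrays and are given as a description.

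Ratios of members within an array do not depend on a scaling that applies 1 factor to all signals of an array. Quantile normalization is not of that kind, and the ratios below are on the deposited scale only. Relative to Acta2, Myh11 was higher in Fn testes: the log2 ratio of Acta2 to Myh11 was 3.17, 2.80 and 2.77 on the Fn arrays and 3.50, 3.51 and 3.22 on the Wt arrays, without overlap. The log2 ratio of Myh11 to Tagln was -0.34, -0.11 and -0.22 in Fn testes and -0.93, -1.26 and -0.56 in Wt testes, also without overlap, and that of Des to Mylk was -4.44, -4.45 and -4.03 in Fn testes and -3.93, -3.95 and -3.87 in Wt testes. In contrast, the log2 ratio of Smtn to Mylk was -3.60, -3.57 and -3.31 in Fn testes and -3.67, -3.62 and -3.16 in Wt testes, with overlap and a mean difference of -0.0085. With 3 arrays a genotype an exact permutation test of such a ratio cannot give a p below 0.10, so the ratios are given as values. The genotypes overlapped for 27 of the 45 ratios between members and did not for 18. The share among ratios of other genes was not computed, so these counts show nothing particular to the members. The 4 ratios given were chosen after their values were seen. A ratio gives no level of one gene against another, since probe sets differ in brightness.

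Most members have close relatives that serve in non-muscle cells or in striated muscle. Of the 17 relatives tested, 9 rose and 2 fell on the deposited scale, with a median log2 change of 0.62. The count that rose was near the share of all genes there (44.9% rose and 24.7% fell). Under the median-of-ratios scaling 8 of the 17 rose and 3 fell, where 28.4% of all genes rose and 32.7% fell. The non-muscle myosin heavy chain Myh9 had 1885, 2214 and 1780.8 in Fn testes and 777.1, 827.4 and 602.1 in Wt testes, a log2 change of 1.42 (in limma, adjusted p = 3.1e-05), and Myh14 rose by 0.62 (0.025), while Myh10, the third non-muscle heavy chain, fell by 0.38 (adjusted p = 0.0067) with 1792, 1797 and 1529.5 in Fn testes and 2149, 2284 and 2206 in Wt testes. Myosin heavy chains thus changed in both directions. Among the calponins, the more widely expressed Cnn3 and Cnn2 had log2 changes of 1.46 and 1.33 (adjusted p = 1.6e-05 and 2.5e-05 from limma), beside 0.90 for Cnn1. The non-muscle light chains Myl12a, Myl12b and Myl6 rose by 0.83, 0.69 and 0.81, Tagln2 by 0.77, and Vim, vimentin, by 0.92, with 10268, 11310 and 11751 on the Fn arrays and 6435, 6026 and 5246.5 on the Wt arrays. Among the cytoplasmic actins, Actg1 fell by 0.19 (adjusted p = 0.0096 from limma), and Actb, whose signal was lowest on replicate 3 of both genotypes, had a log2 change of 0.09 (adjusted p = 0.74) that turned to -0.19 under the median-of-ratios scaling. Smtnl2 (0.46, adjusted p = 0.057) and Myl6b (-0.66, 0.13) did not pass. The relatives of striated muscle were dim: Actc1 (0.33, 0.47), Mylk3 (0.30, 0.36) and Mylk4 (0.17, 0.63) did not pass, and Acta1, Lmod2, Lmod3, Mylk2, Smtnl1 and Tagln3, the last a neuronal transgelin, were under the filter and not tested.

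**Figure D3:**
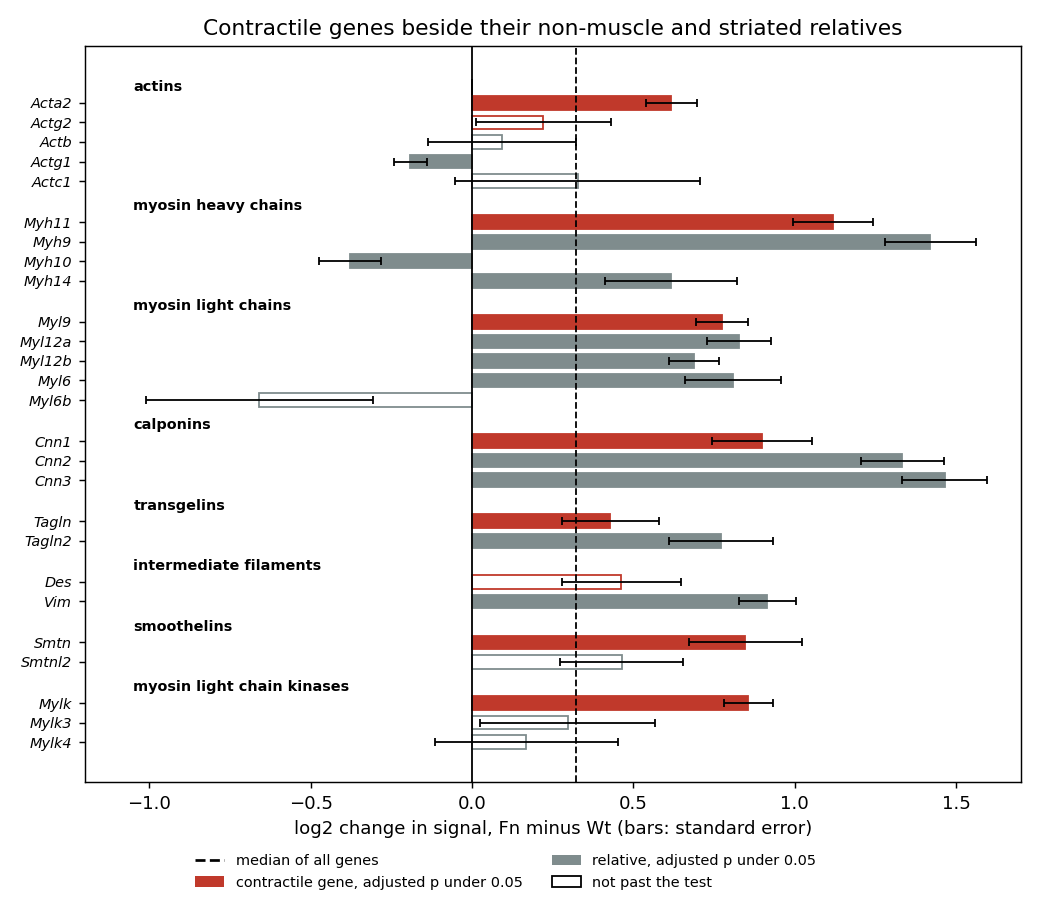
log2 change (horizontal axis, Fn minus Wt, bars with SE) of the contractile genes and of their relatives, grouped by protein family, with filled bars for an adjusted p under 0.05 and the median of all genes, 0.32, as a dashed line. Myh10 and Actg1 lie below 0 and the calponins, Vim and Myh9 lie above the dashed line.

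Other parts of the contractile machinery were read from lists chosen by role, of which the members named first are those with the smallest p. Counts of these lists are to be read against all genes, of which 44.9% rose and 24.7% fell. Under the median-of-ratios scaling 28.4% of all genes rose and 32.7% fell. Of 28 genes tested for thin filament, dense body and adhesion proteins, 22 rose and 2 fell (median log2 change 0.84). With that scaling 22 rose and 3 fell. Flna, filamin A, which crosslinks actin, had 1805, 1851 and 1964 in Fn testes and 863.8, 770.2 and 830.1 in Wt testes (difference 1.19 on the log2 scale, adjusted p = 8.5e-06 by limma). Cald1, caldesmon, which blocks myosin from actin, rose by 1.12 (adjusted p = 9.2e-06), and Vcl, vinculin, which ties actin to adhesions, rose by 1.22 (1.6e-05). The tropomyosin genes Tpm1, Tpm2, Tpm3 and Tpm4, chosen after their values were seen, rose by 0.64 to 1.10. Tln1, talin, the partner of vinculin at integrins, went the other way, with 1017, 1299 and 857 in Fn testes against 3052, 3029 and 3467 in Wt testes (log2 change -1.61, adjusted p = 1.6e-05 from limma), and Lims2 fell by 0.52 (0.0052).

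Among the enzymes and channels that set the force of smooth muscle, 13 of 20 tested rose and 2 fell (median log2 change 0.58). Of all genes 44.9% rose. Under the median-of-ratios scaling 9 of the 20 rose and 3 fell, where 28.4% of all genes rose. Ano1, a calcium-activated chloride channel, had 1389, 1323 and 1537 in Fn testes and 537.7, 632.4 and 489.3 in Wt testes (log2 change 1.36, adjusted p = 1.9e-05 from limma). Gucy1a1, a subunit of the nitric oxide receptor that makes cyclic GMP, rose by 1.40 (adjusted p = 2.9e-05), and Pde5a, which degrades cyclic GMP, by 0.99 (3.9e-04). Ppp1r12a, the subunit that directs myosin phosphatase to its target and was chosen after its value was seen, rose by 0.64 (4.5e-04). Hspb6, a small heat shock protein tied to relaxation, fell by 1.27 (2.5e-04), and Pln, phospholamban, fell by 0.91 (0.038). Of receptors for contractile agonists, 5 of 11 listed were tested and 2 rose, near the share of all genes. These were Avpr1a, the vasopressin receptor, by 0.95 (0.0019) and Oxtr, the oxytocin receptor, by 0.82 (0.0075). Tbxa2r, the thromboxane receptor, had a change of 0.51 (adjusted p = 0.066 from limma). Agtr1a, the angiotensin receptor, fell, with 153.9, 209.9 and 230.3 on the Fn arrays and 600.0, 395.8 and 699.6 on the Wt arrays (log2 change -1.49, adjusted p = 4.2e-04 from limma).

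Transcription factors and TGF-beta genes of the smooth muscle programme rose in 19 of 23 tested genes and fell in 1 (median log2 change 0.82). Of all genes 44.9% rose. Under the median-of-ratios scaling 16 of the 23 rose and 3 fell, where 28.4% of all genes rose. Fhl2, a LIM protein and SRF target, rose by 1.02 (adjusted p = 2.0e-05 from limma), Smad3 and Smad4, which carry the TGF-beta signal, by 1.08 (4.7e-05) and 0.97 (4.8e-05), and Mrtfb, an SRF cofactor, by 0.83 (5.1e-05). Srf, which encodes the factor whose motif was searched in the Acta2 and Myl9 windows, and the other cofactors were chosen after their values were seen. Srf had 870.7, 817.2 and 809.1 in Fn testes and 435.9, 473.4 and 394.9 in Wt testes, a log2 change of 0.94 (in limma, adjusted p = 1.3e-04). The cofactor Mrtfa fell by 0.61 (0.0065), with 518.7, 543.0 and 623.7 in Fn testes and 752.1, 784.2 and 1068.8 in Wt testes. Myocd, myocardin, the cofactor most specific to muscle, had 148.0, 122.9 and 42.3 on the Fn arrays and 50.5, 69.3 and 37.9 on the Wt arrays, with overlap and a change of 0.85 (SE 0.47, adjusted p = 0.14 from limma). The cofactors of SRF thus did not all have the same sign.

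**Figure D4:**
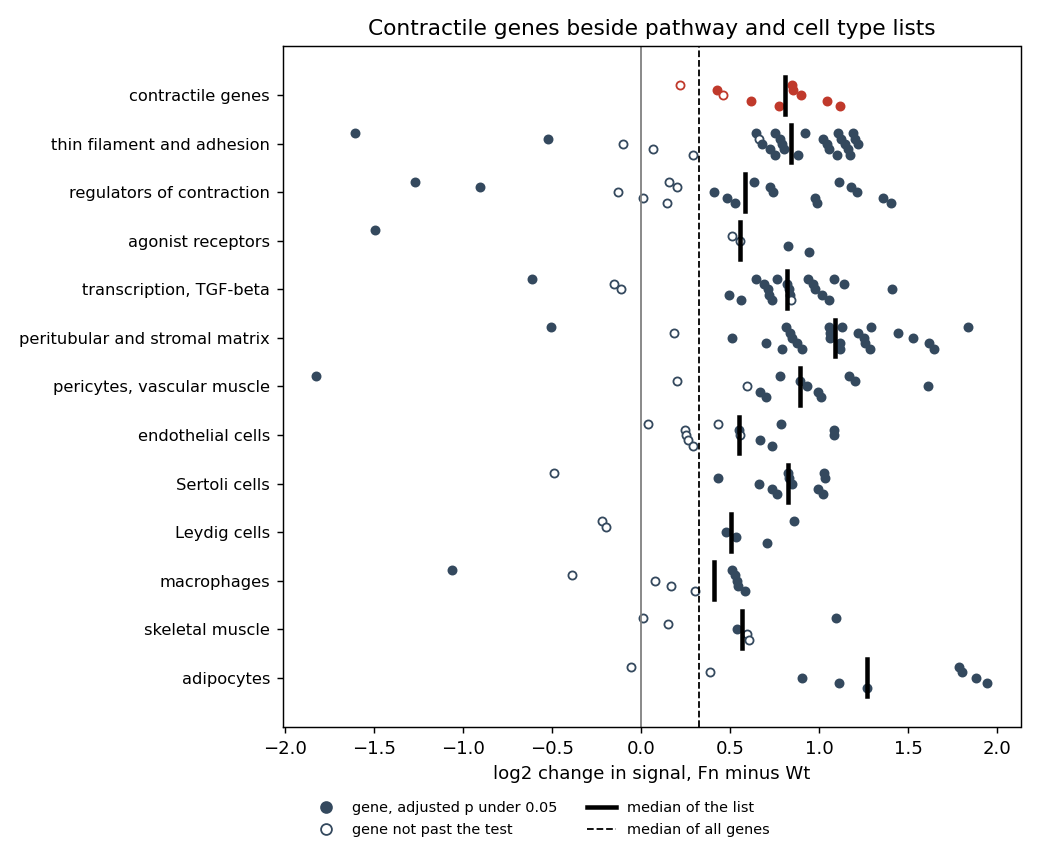
log2 change (horizontal axis, Fn minus Wt) of each tested gene of the contractile list (top) and of lists of its pathway and of cell types, with filled points for an adjusted p under 0.05, a bar for the median of a list and a dashed line for the median of all genes, 0.32. The contractile genes span 0.22 to 1.12, inside the range of the matrix list, -0.51 to 1.84.

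Markers of other cells are given beside these values, and their counts are to be read against the 44.9% of all genes that rose, or the 28.4% under the median-of-ratios scaling. With that scaling 23 of 26 matrix and stroma genes rose and 1 fell. Of the 13 pericyte and vascular muscle genes 8 rose and 1 fell, and of the 13 endothelial genes 5 rose and none fell. The counts that follow are on the deposited scale. Of genes for the matrix and stroma around the tubules, 24 of 26 tested rose and 1 fell (median log2 change 1.09), with summed signals of 99598 to 107992 in Fn and of 47685 to 58781 in Wt testes. Tcf21, a transcription factor of testicular stroma, rose by 1.29 (adjusted p = 1.1e-05 from limma), Nid1, a basement membrane glycoprotein, by 1.26 (3.1e-06), and the defining markers Lum, Dcn and Col1a1 by 1.62, 1.06 and 1.12, while the integrin gene Itga1, chosen after its value was seen, fell by 0.51 (0.049). Of genes for pericytes and vascular smooth muscle, 10 of 13 rose and 1 fell (median 0.89, summed signals 3581 to 3927 in Fn and 2490.4 to 2682 in Wt testes). The defining markers Rgs5, Cspg4 and Pdgfrb rose by 0.78, 0.67 and 1.17, and Ndufa4l2, a mitochondrial gene of pericytes, fell by 1.82 (1.0e-05). Of endothelial genes, 6 of 13 rose and none fell, close to the share of all genes (median 0.55, summed signals 2883 to 3367 in Fn and 1927 to 2097.5 in Wt testes). Emcn and Eng both rose by 1.08, whereas the defining markers Pecam1 (0.55, adjusted p = 0.069), Kdr (0.43, 0.082) and Cdh5 (0.04, 0.87) did not pass.

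Sertoli cell genes rose in 11 of 12 and Leydig cell genes in 4 of 6 tested genes (medians 0.83 and 0.50), and none fell. Under the median-of-ratios scaling 10 of the 12 Sertoli genes rose, and only 1 of the 6 Leydig genes, Nr5a1. The Sertoli genes summed to 57981 to 60359 in Fn and to 33758 to 39655 in Wt testes, and the Leydig genes to 7455 to 13690.4 in Fn and to 7031 to 10961 in Wt testes, where the ranges overlapped. Inhbb and Rhox5 rose by 1.03 and 0.83 and the Sertoli markers Sox9 and Wt1 (here the Wilms tumour gene) by 0.83 and 0.76, while Amh (-0.49, adjusted p = 0.57 from limma) did not pass. Nr5a1 and Hsd3b1 rose by 0.71 and 0.48, and Cyp11a1 (-0.22) and Cyp17a1 (-0.20) did not pass. Of macrophage genes 5 of 10 rose and 1 fell, near the share of all genes, and under the median-of-ratios scaling none rose and 1 fell (median 0.41 on the deposited scale, summed signals 6757 to 9492 in Fn and 5263 to 6752 in Wt testes), with Csf1r at 0.53, Cd68 at 0.59, Aif1 at -1.06 and Adgre1 at 0.08, of which Adgre1 did not pass.

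Muscle and fat from outside the testis were also looked for. Of 14 skeletal muscle genes, 6 passed the filter and 2 rose, Myh1 (1.10, adjusted p = 0.0029 from limma) and Actn3 (0.54, 0.031). Ckm had 83.0, 105.4 and 46.8 in Fn testes and 47.6, 51.6 and 48.1 in Wt testes (adjusted p = 0.16), and Myh4 was under the filter. The summed signal of the 6 genes was 1498 to 1836 in Fn and 1041 to 1318 in Wt testes. Under the median-of-ratios scaling 1 of the 6 rose, as did 5 of the 9 adipocyte genes tested. Of all genes 28.4% rose under that scaling and 44.9% on the deposited scale. Of adipocyte genes, 7 of 9 tested rose and none fell (median 1.27, summed signals 8044 to 14297 in Fn and 2219.6 to 6717 in Wt testes), with Scd1 at 1.79, Adipoq at 1.80, Fabp4 at 1.88 and Car3 at 1.94. Within each genotype these sums varied more than those of the contractile genes, which were 29275 to 31179 in Fn and 17098 to 19717 in Wt testes. Of epididymal genes, 4 of 10 were tested, none rose and Rnase10 fell by 1.93 (6.6e-04), Lcn5 had a change of 1.56 (adjusted p = 0.077), and Lcn8 and Lcn9 were under the filter. Spink8, the brightest of the epididymal genes and chosen after its values were seen, had 872.1, 2407 and 1187.7 in Fn testes and 256.0, 1586 and 686.3 in Wt testes (log2 change 1.05, adjusted p = 0.14 from limma), so that replicate 2 was the highest array in both genotypes. The summed signal of the 4 genes was 1043 to 2680.5 in Fn and 501.7 to 1901.5 in Wt testes. The part of any of these cell types, or of the loss of late germ cell RNA, in the values of the contractile genes was not tested.

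The genes whose signals followed the contractile genes most closely over the 6 arrays were found by correlating each of 12687 other genes with the mean log2 signal of the 10 members. The 5 with the highest Pearson's r, all between 0.9987 and 0.9991, were Anxa6, an annexin that binds membranes with calcium, Slc6a8, the creatine transporter, Cc2d2a, a protein of the ciliary transition zone, Habp4, a hyaluronan-binding protein, and Eln, elastin. Eln had 2843, 3171 and 3287 on the Fn arrays and 1639, 1669 and 1519 on the Wt arrays, so its arrays stood in the same order as the members' medians. An r of at least 0.95 was found for 21.1% of the genes compared. The likeness rests on 6 arrays in 2 groups and mostly on the difference between the groups.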

How the data were processed

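RNA of whole testes from 3 Fn and 3 Wt samples at P21 was hybridised to 6 Affymetrix mouse arrays. For each probe set the authors deposited a linear intensity, the MAS5 signal (a tool the submitters' processing notes name, with no version). Trimmed of its tails, each array averaged 498.8 to 499.5, which shows a common scaling before deposit. Gene names came from the platform annotation, in which 34945 probe sets named 1 gene, 932 several and 9160 none. Of the first kind, 34741 were found in RefSeq's gene table (GRCm38.p6). The 1 value of 0 was set to 0.1.

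Log2 signals were tested with limma 3.58.1 (lmFit, then eBayes with its trend option) in R 4.3.3 over the 27022 probe sets whose mean reached the 40th percentile (signal 48.0), with Benjamini-Hochberg adjustment. Each of 13447 genes was read from the brightest of the probe sets naming only that gene. The members, the lists and the rule for named genes were chosen with earlier results of these data known. That rule takes all members, Dazap1, the relatives, the 4 genes with the smallest p of each pathway list, 2 of each cell type list with its first 3 markers, and the 5 genes most like the members. Other names were chosen after their values were seen. A p-value here reflects only how much these samples vary, and precision is limited by the number of arrays. The steps were also run on simulated data, in which a small set of probe sets was changed equally in both directions. Those data lacked the rise shared by most genes here, so the run says nothing of the scaling.

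In the labels each genotype has replicates 1 to 3. The deviations of same-numbered Fn and Wt arrays from their group means had correlations of 0.13, 0.12 and 0.16 over the probe sets, while differently numbered arrays gave -0.15 to 0.04. By this check of the values alone the same-numbered arrays were weakly alike. The deviations within a genotype cancel out, so the differently numbered values are not independent of the same-numbered ones. The labels do not say what a shared number stands for, and pairing was not settled. The tests printed carry no replicate block, which was run as an alternative. Alternatives covered scaling, filter, pseudocount, prior variance, array weights, choice of probe set, threshold, the replicate block and leaving out each array. Detection calls were not analysed here.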

Additional observations from a re-analysis of the deposited data

How the results depend on the processing

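Every alternative left 6 to 9 members higher and none lower, counting the fits with arrays centred on the genes tested. The 6 were of 9 members tested, with centred arrays and the filter at the 60th percentile, which Lmod1 did not pass. The share of all genes that rose is not given for each alternative, so these counts show only how stable the calls were. The median log2 change of the members was 0.81 as deposited, 0.74 with quantile normalization, 0.68 with arrays centred on the 75th percentile, 0.65 with arrays centred on the median of all probe sets, 0.69 with a pseudocount of 64, and 0.53 with the median-of-ratios scaling, which was chosen after seeing the data. Leaving out each array in turn gave 0.75 to 0.84 and 7 to 8 members. The median of all genes moved with the scaling too, at 0.32, 0.25, 0.19 and 0.17 in the first 4 of these and 0.04 in the last. The genes that rose and fell numbered 6034 and 3328 on the deposited scale, 5445 and 3463 after quantile normalization, 5065 and 3770 with the 75th percentile, 4456 and 3686 with the median of all probe sets, and 3818 and 4392 with the median-of-ratios scaling. Actg2 reversed to -0.061 under the last of these. Tagln lost its call under 10 of the 20 alternatives, and Des gained one under 5, with adjusted p-values from limma of 0.033 to 0.0497. The median-of-ratios scaling removes the change shared by most genes by its construction, and the cause of the other differences was not tested. Low signal limits what can be said of the 3 member probe sets under the filter level, and 3 arrays a genotype leave wide intervals for the dimmer members.

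With the replicate number as a block, 8 members rose, 6165 genes rose and 3410 fell, and 10 member probe sets rose. The block changed no call of a single member on the deposited scale. With arrays centred on the genes tested it gave 8 members in place of 7, and the share of all genes in that fit is not given here.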
